A study of Mus musculus with 24 samples.

Results

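The stretches described here are parts of the mouse genome that lay inside lamin A/C domains of one genotype and outside those of the other with both lamin A/C antibodies, after 12 cycles of sonication. Lost stretches were in the domain lists of antibodies N18 and 3A6 in LAP2alpha wild-type (WT) cells and in neither list from LAP2alpha knockout (KO) cells. Gained stretches were in both KO lists and in neither WT list. Of 3486 domains in 12 libraries, 1090 came from the 4 libraries that chose the members, and the comparison left 282 stretches, 150 lost and 132 gained. Lost stretches summed to 81.61 Mb, which is 3.19% of the called genome, and gained stretches to 71.79 Mb, which is 2.81%. Members were thus selected on the 12-cycle EDD domains of these 4 libraries, so their lengths and 12-cycle lamin A/C cover are a description and carry no test.

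All libraries came from untreated immortalized murine dermal fibroblasts, KO cells lacking LAP2alpha (gene Tmpo) and WT cells that have it. Chromatin immunoprecipitation and sequencing was performed with antibodies to the N terminus (N18) and the Ig fold (3A6) of lamin A/C in KO and WT cells, and to LAP2alpha and lamin B1 in WT cells, after 12 or 30 sonication cycles. Each antibody, genotype and sonication was 1 library, so no difference below has a replicate check and no p-value was computed. By the run names attached to the deposited lists, at each sonication the KO and WT lamin A/C libraries shared a flow-cell lane, whereas the 12-cycle and 30-cycle ones were on different flow cells, so for lamin A/C sonication and sequencing run cannot be told apart. The LAP2alpha libraries of 12 and 30 cycles were also on different flow cells, and both lamin B1 libraries shared a lane of yet another. Differences between LAP2alpha, lamin B1 and lamin A/C lists thus cannot be told apart from sequencing run. The number of cell lines or clones behind each genotype is not given in the sources used here, so a property of 1 line and the genotype cannot be told apart. Region lists carry no expression, so neither the absence of LAP2alpha nor the fibroblast identity was tested.

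Lamins are the filament proteins of the nuclear lamina. B-type lamins stay at the nuclear envelope and mark lamina-associated domains, which are mostly gene-poor and transcriptionally quiet. A-type lamins are found at the envelope and also in the nuclear interior, where LAP2alpha, a soluble LEM-domain protein without a membrane anchor, binds them. Domains were called by EDD, which finds broad enrichment over input in bins of 11 kb, and islands by SICER, which finds shorter enriched windows.

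Promoter sequences are shown for the leading listed gene of the 3 longest lost stretches and of 2 of the 3 longest gained ones, because the genes of both sets differed in CpG content. Each runs 5′ to 3′ on the gene's own strand over 300 bases, 270 before the annotated gene start and 30 from it, read from the mm9 (NCBIM37) assembly, with every CG dinucleotide in capitals. Ror2 (chr13:53381464-53381763, minus strand), a receptor of Wnt ligands, Cyp3a13 (chr5:138362818-138363117, minus strand), a cytochrome P450, and Rpl12 (chr2:32816809-32817108, plus strand), a protein of the large ribosomal subunit, lay in lost stretches. Kcnmb2 (chr3:31801159-31801458, plus strand), an auxiliary subunit of calcium-activated potassium channels, and Csmd1 (chr8:17535557-17535856, minus strand), a large membrane protein with CUB and sushi domains, lay in gained stretches.
Ror2: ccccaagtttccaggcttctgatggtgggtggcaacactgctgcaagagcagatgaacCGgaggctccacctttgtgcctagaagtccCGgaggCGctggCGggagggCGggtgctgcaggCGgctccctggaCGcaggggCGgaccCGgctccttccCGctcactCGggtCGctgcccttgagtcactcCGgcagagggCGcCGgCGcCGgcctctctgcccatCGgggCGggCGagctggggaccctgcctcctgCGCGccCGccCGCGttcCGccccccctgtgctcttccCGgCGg
Cyp3a13: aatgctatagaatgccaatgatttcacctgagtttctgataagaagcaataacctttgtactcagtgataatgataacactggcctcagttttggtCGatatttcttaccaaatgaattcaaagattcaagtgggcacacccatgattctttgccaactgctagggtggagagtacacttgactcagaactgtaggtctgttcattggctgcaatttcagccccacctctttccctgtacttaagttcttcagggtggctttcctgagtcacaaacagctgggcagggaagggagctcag
Rpl12: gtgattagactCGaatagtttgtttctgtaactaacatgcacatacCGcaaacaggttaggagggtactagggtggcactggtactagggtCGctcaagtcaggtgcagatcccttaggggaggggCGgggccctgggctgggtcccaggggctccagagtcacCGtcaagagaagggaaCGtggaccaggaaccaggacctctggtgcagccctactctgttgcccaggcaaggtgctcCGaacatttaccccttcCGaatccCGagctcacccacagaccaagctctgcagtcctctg
Kcnmb2: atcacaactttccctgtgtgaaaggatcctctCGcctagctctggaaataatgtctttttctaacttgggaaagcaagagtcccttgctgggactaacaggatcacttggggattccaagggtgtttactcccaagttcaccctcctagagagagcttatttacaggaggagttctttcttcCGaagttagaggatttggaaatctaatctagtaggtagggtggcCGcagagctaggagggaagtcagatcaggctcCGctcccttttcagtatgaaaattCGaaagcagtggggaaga
Csmd1: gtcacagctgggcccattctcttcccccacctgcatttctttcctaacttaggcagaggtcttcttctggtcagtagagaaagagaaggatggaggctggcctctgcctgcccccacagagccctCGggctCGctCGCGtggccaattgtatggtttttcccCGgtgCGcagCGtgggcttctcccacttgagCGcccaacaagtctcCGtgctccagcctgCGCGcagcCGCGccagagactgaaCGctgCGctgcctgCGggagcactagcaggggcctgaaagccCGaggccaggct
The CG dinucleotide occurred 28 times in the Ror2 window, once in that of Cyp3a13 and 9 times in that of Rpl12. The gained windows held 5 for Kcnmb2 and 17 for Csmd1. The lost windows shown thus had both fewer and more CG dinucleotides than the gained ones.

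Lost stretches ran from 11 to 4334 kb with a median of 407 kb, and gained stretches from 11 to 4455 kb with a median of 407 kb. The sets had like length distributions, with 120 lost and 108 gained stretches of at least 100 kb, and 16 lost and 14 gained of at least 1000 kb. The 10 longest held 30.6% of the lost and 32.3% of the gained length. The minimum of 11 kb is 1 EDD bin, so nothing fell under it, and 6 lost and 2 gained stretches were exactly that long, with 5 lost and 2 gained at 22 kb.

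Most members were pieces of longer domains. A lost stretch was a whole N18 domain of WT cells in 9 cases and a whole 3A6 domain of WT cells in 32, and a gained stretch was a whole N18 domain of KO cells in 17 cases and a whole 3A6 domain of KO cells in 18. Among lost stretches 78 abutted a KO domain of either antibody at 1 edge, 17 at both edges and 55 at neither, against 60, 7 and 65 gained stretches that abutted a WT domain. Lost length was 52.0% of all that N18 lost in KO cells and 38.5% of all that 3A6 lost. Gained length was 41.0% of all that N18 gained and 36.4% of all that 3A6 gained. Direct conflicts were short. Of the bp that N18 lost, 0.946 Mb was gained with 3A6, and of the bp that 3A6 lost, 8.15 Mb was gained with N18. Much more changed with 1 antibody alone. Of the bp that 3A6 lost, 84.4 Mb was kept with N18, against 8.68 Mb of N18 losses kept with 3A6. Of the bp that 3A6 gained, 118.2 Mb was in no N18 domain of either genotype. Of the bp that N18 gained, 66.9 Mb was in no 3A6 domain.

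Lost and gained stretches were unevenly spread over the chromosomes. Chromosomes 6, 10, 13 and 14 carried lost stretches alone, chromosomes 3, 8, 16, 18 and X gained stretches alone, and 11 chromosomes carried both. Chromosome 1 held 13.5 Mb lost in 24 stretches, against 2.11 Mb gained. Chromosome 11 held 12.0 Mb lost in 22 stretches, against 0.814 Mb gained, and chromosome 13 held 9.01 Mb lost. Chromosome 16 had the most gained length, 15.0 Mb in 18 stretches, which is 20.9% of the set. Chromosomes 3, 7, 8, 12, 16, 18 and X together carried 89.0% of the gained length. Along the chromosome, counted from the annotated start, the median lost stretch sat at 60.9% of the length and the median gained stretch at 44.6%.

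**Figure D1:**
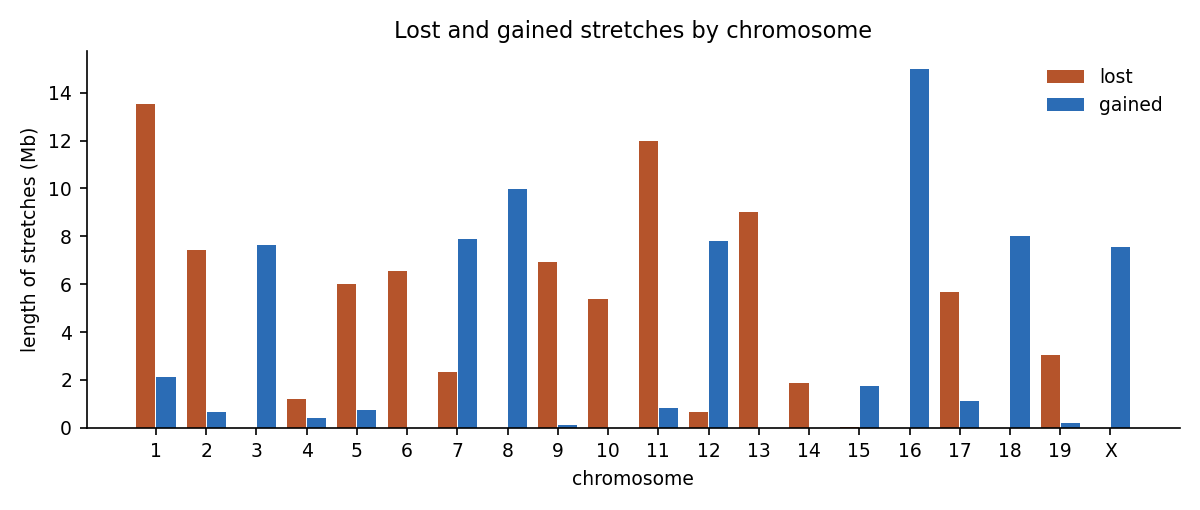
Total length of lost and of gained stretches (Mb) on each chromosome, 1 pair of bars per chromosome. Chromosome 1 has the tallest lost bar (13.5 Mb) and chromosome 16 the tallest gained bar (15.0 Mb), and chromosomes 3, 8, 16, 18 and X have no lost bar.

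The share of whole chromosomes inside SICER islands of the same 12-cycle libraries moved with this pattern on some chromosomes. On the 4 chromosomes with lost stretches alone it was lower in KO than in WT cells with both antibodies. Of the 5 with gained stretches alone, it was higher in KO cells with both antibodies on chromosomes 3, 16 and 18. Chromosome X went the other way, with 1.82% in KO cells and 5.61% in WT cells with N18. Chromosome 1 held 13.5 Mb of lost and 2.11 Mb of gained length. Its N18 islands covered 0.218% in KO cells and 0.119% in WT cells, so the higher KO value there rests on very little cover. The genome had 9.96% in KO cells and 9.42% in WT cells. With N18, islands covered 40.9% of chromosome 18 in KO cells and 2.34% in WT cells, and 0.400% of chromosome 13 in KO cells against 16.9% in WT cells. On chromosome 16 they covered 16.1% in KO cells and 1.40% in WT cells. Neither antibody had a single domain on chromosome 10 in KO cells, and N18 had none on chromosome 14 in KO cells, so all 7.28 Mb lost on these chromosomes came with an empty KO list for N18. Chromosome 8, with 9.99 Mb gained and none lost, had an island cover of 39.1% in KO cells and 38.4% in WT cells with N18, and of 29.8% in KO cells and 37.0% in WT cells with 3A6. What part such whole-chromosome shifts had in the choice of members was not tested. Chromosomes 6, 8 and 15, where island cover of KO and WT cells was over 1% and at most 2-fold apart with each antibody, held 6.56 Mb of lost and 11.7 Mb of gained length.

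Lost stretches were LAP2alpha chromatin of WT cells and gained stretches mostly were not. At 12 cycles, LAP2alpha domains covered 90.3% of lost bp and 7.60% of gained bp, beside 19.8% of the called genome. Stretches covered by 50% or more numbered 133 of 150 lost and 23 of 132 gained, and stretches with no LAP2alpha domain numbered 13 lost and 101 gained. On every chromosome with lost stretches LAP2alpha covered at least 82.4% of them, and on no chromosome did it cover more than 32.5% of the gained ones. On the 11 chromosomes that carry both sets it covered 90.9% of lost and 15.9% of gained bp. On chromosomes 6, 8 and 15 alone the difference was 89.0 percentage points, but 6.53 Mb of the lost length there was on chromosome 6 and all the gained length on chromosomes 8 and 15, so this sets chromosomes against each other. The LAP2alpha library shares the WT input with the lamin A/C libraries that chose the members, and stretches kept in both genotypes with both antibodies were covered to a like degree, 94.8%. Lost bp were chosen inside WT lamin A/C domains of 12 cycles and gained bp outside them. The paper reports that most such WT domains overlap LAP2alpha domains. The order of lost and gained bp in LAP2alpha cover at 12 cycles is thus a description and carries no test. After 30 cycles LAP2alpha covered 52.9% of lost bp and 32.7% of gained bp, beside 25.2% of the genome. That 30-cycle list had no domain on chromosomes 3, 8, 13, 19 and X, where 12.1 Mb of lost and 25.4 Mb of gained bp lie.

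Lamin B1 showed the opposite order. At 30 cycles lamin B1 domains of WT cells covered 8.86% of lost bp and 57.8% of gained bp, beside 37.3% of the genome. At 12 cycles they covered 8.69% of lost bp and 25.3% of gained bp, beside 17.4% of the genome. Stretches covered by 50% or more at 30 cycles numbered 15 lost and 68 gained, and 122 lost and 58 gained stretches held none. Lost stretches were under 50% covered on all 15 of their chromosomes, and gained ones were at 50% or more on 11 of 16. Kept stretches, which like the lost ones were LAP2alpha chromatin, had 43.8% of their bp in 30-cycle lamin B1 domains.

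LAP2alpha domains of 12 cycles without a 30-cycle lamin B1 domain made up 84.5% of lost bp, 4.81% of gained bp and 54.0% of kept bp, beside 16.1% of the genome. Lamin B1 without LAP2alpha made up 3.09% of lost bp, 55.0% of gained bp and 2.97% of kept bp, beside 33.6% of the genome. Neither was present on 6.65% of lost bp and 37.4% of gained bp.

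**Figure D2:**
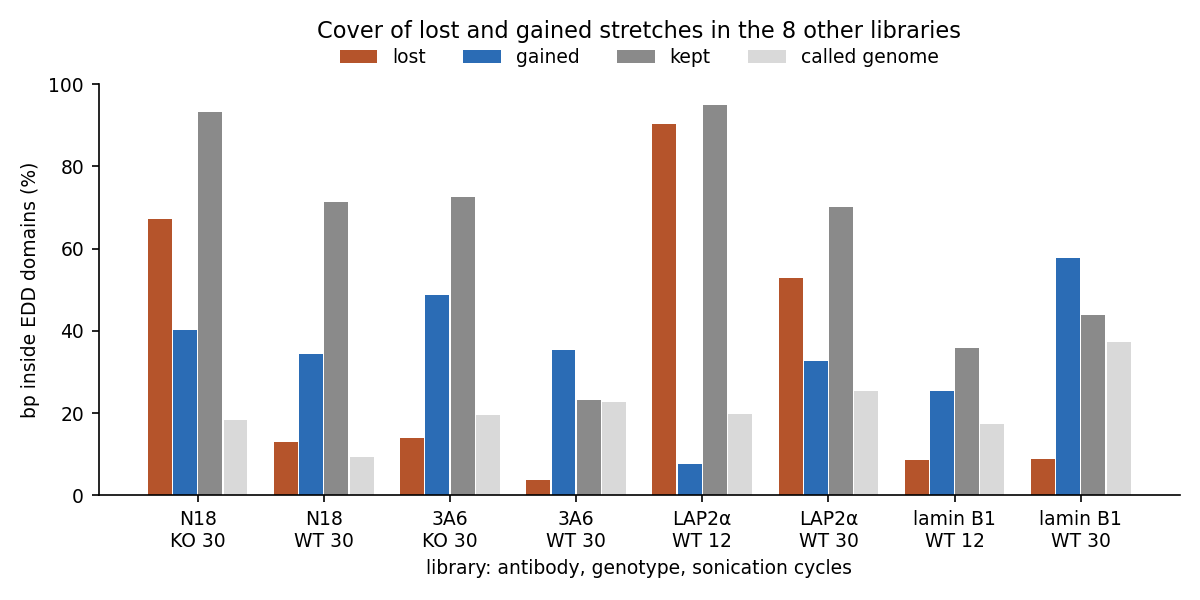
Percent of bp inside EDD domains of each of the 8 libraries that did not choose the members, for lost, gained and kept stretches and the called genome. Each bar is 1 library, with no error bar. LAP2alpha at 12 cycles covers 90.3% of lost and 7.60% of gained bp, and lamin B1 at 30 cycles 8.86% of lost and 57.8% of gained bp.

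Exceptions were found in each set. The 17 lost stretches under 50% LAP2alpha cover at 12 cycles summed to 6.03 Mb, had a G+C content of 43.7% and were 35.2% covered by 30-cycle lamin B1 domains. The other 133 lost stretches had a G+C content of 47.1% and a lamin B1 cover of 6.75%. The 15 lost stretches at 50% or more lamin B1 cover summed to 6.46 Mb, of which 3.34 Mb was on chromosome 1, and held 5.11 genes per Mb. Among gained stretches, the 23 at 50% or more LAP2alpha cover were short, with a median of 132 kb against 451 kb for the other 109, and 2.70 of their 4.96 Mb was on chromosome 7. The 64 gained stretches under 50% lamin B1 cover held 9.06 genes per Mb, and the 68 at or above it 5.60 genes per Mb.

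The 30-cycle lamin A/C libraries were other chromatin preparations that the choice did not use. In their domain lists lost stretches had more KO than WT cover, and so had kept stretches. N18 domains at 30 cycles covered 67.2% of lost bp in KO cells and 13.0% in WT cells, beside 18.4% of the genome in KO cells and 9.32% in WT cells. The difference of KO minus WT was 54.2 percentage points on lost bp, the opposite sign to 12 cycles. 3A6 domains at 30 cycles covered 13.9% of lost bp in KO cells and 3.71% in WT cells, beside 19.5% of the genome in KO cells and 22.8% in WT cells. That difference was 10.2 points, again positive. Counted by SICER islands of the 30-cycle libraries, the sign turned, with 16.4% of lost bp in KO cells and 18.9% in WT cells with N18, and 3.18% in KO cells and 4.38% in WT cells with 3A6. Kept stretches had an N18 cover of 93.2% in KO cells and 71.4% in WT cells, and a 3A6 cover of 72.5% in KO cells and 23.3% in WT cells, so the 3A6 excess was larger on kept than on lost bp. KO cover exceeded WT cover with N18 in 101 of 150 lost stretches and was lower in 15, and exceeded it with 3A6 in 40 and was lower in 5. A difference of 50 points or more was present in 76 lost stretches with N18 and in 29 with 3A6.

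On gained stretches the order of KO and WT cover depended on the choice of stretches. N18 domains at 30 cycles covered 40.3% of gained bp in KO cells and 34.5% in WT cells. 3A6 domains covered 48.8% in KO cells and 35.4% in WT cells. On chromosomes 6, 8 and 15 alone the N18 difference was -0.281 points. Chromosome 6 had no gained stretch, and the difference was 7.71 points on the 13 stretches of chromosome 8 and -45.6 points on the 5 of chromosome 15. On all stretches gained with 3A6, whatever N18 showed, the difference was -0.0948 points with N18 and -3.05 points with 3A6. The N18 difference on gained bp, 5.82 points, was below the genome's, 18.4% in KO cells against 9.32% in WT cells. KO cover exceeded WT cover with N18 in 48 of 132 gained stretches and was lower in 31, and with 3A6 it was higher in 48 and lower in 21. Both antibodies had KO above WT in 35 lost and 25 gained stretches, and KO below WT in 1 lost and 11 gained stretches.

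Chromosomes differed in this respect. On lost stretches the N18 difference was positive on 14 of 15 chromosomes, from 8.22 points on chromosome 1 to 96.0 points on chromosome 5, and on chromosome 7 it was -20.9 points. The 3A6 difference was positive on 10 of 15, negative on chromosome 1 (-6.59 points) and 0 on 4. Chromosome 10 had high KO cover with both antibodies, 86.1% with N18 and 65.3% with 3A6, against 5.51% and 5.31% in WT cells. On gained stretches the N18 difference was positive on 8 of 16 chromosomes and the 3A6 difference on 12. Chromosome 8 had a 3A6 cover of 92.8% in KO cells and 39.0% in WT cells. Chromosome 16 had a 3A6 cover of 0% in KO cells and 32.9% in WT cells, and the KO list of 3A6 at 30 cycles had no domain anywhere on that chromosome.

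**Figure D3:**
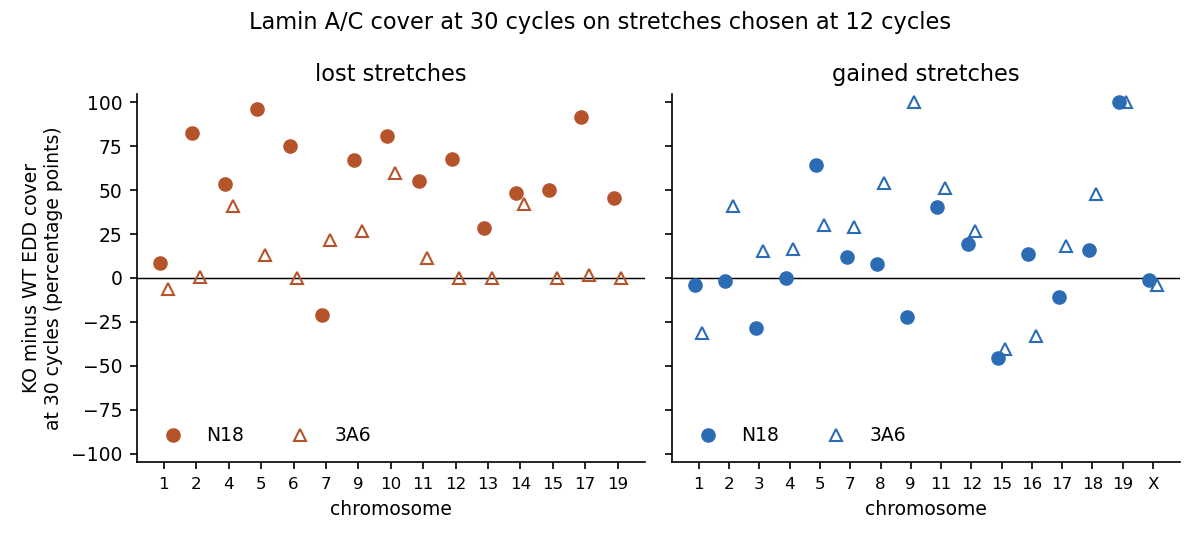
KO minus WT domain cover at 30 cycles (percentage points) on the stretches of each chromosome, for lost (left) and gained (right) stretches, with filled circles for N18 and open triangles for 3A6. Lost stretches sit above 0 with N18 on 14 of 15 chromosomes, and gained stretches scatter to both sides.

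Bp that both antibodies gained in KO cells at 30 cycles made up 7.43% of lost bp (6.06 Mb) and 11.5% of gained bp (8.22 Mb), beside 2.85% of the genome. Bp that both antibodies lost at 30 cycles made up 0.0270% of lost bp (0.022 Mb) and 3.16% of gained bp (2.27 Mb), beside 0.728% of the genome. No lamin A/C domain of 30 cycles touched 28.4% of lost bp and 25.9% of gained bp, against 57.1% of the genome.

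SICER islands gave a different picture of the lost stretches at 30 cycles. Islands of N18 covered 16.4% of lost bp in KO cells and 18.9% in WT cells, beside 10.7% of the genome in KO cells and 9.51% in WT cells. Islands of 3A6 covered 3.18% of lost bp in KO cells and 4.38% in WT cells, beside 6.32% of the genome in KO cells and 8.35% in WT cells. The sign of the 30-cycle difference on lost bp thus depended on which list was used. On gained bp the sign did not, with N18 islands on 26.4% in KO cells and 19.9% in WT cells, and 3A6 islands on 26.0% in KO cells and 13.9% in WT cells. Islands and domains of a library come from the same reads, so 12-cycle island cover of the members is a description and carries no test. Summed over all members, the 12-cycle islands of the 4 libraries that chose them ran the same way as their domains. On lost bp those of N18 covered 11.6% in KO cells and 23.6% in WT cells, and on gained bp 26.5% in KO cells and 9.63% in WT cells, beside 9.96% of the genome in KO cells and 9.42% in WT cells. With 3A6 they covered 5.22% of lost bp in KO cells and 23.7% in WT cells, and 28.9% of gained bp in KO cells and 11.6% in WT cells, beside 7.34% of the genome in KO cells and 9.06% in WT cells. No 12-cycle N18 island of KO cells touched 81 of the 150 lost stretches, and no such island of WT cells touched 61. Chromosome 1, with the most lost length, had almost no 12-cycle islands, so the summed values on lost bp rest on other chromosomes. Over that whole chromosome N18 islands covered 0.218% in KO cells and 0.119% in WT cells, and 3A6 islands 0.198% and 0.117%.

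Lost stretches were richer in G+C and in genes. G+C content was 46.9% in lost and 41.9% in gained stretches, with 46.0% in kept stretches and 41.8% in the called genome. Single lost stretches ran from 38.8% to 54.5% with a median of 46.0%, and single gained stretches from 38.6% to 50.1% with a median of 42.4%. Stretches above the genome value numbered 145 of 150 lost and 76 of 132 gained, so the sets overlapped. The CpG observed-to-expected ratio was 0.219 in lost and 0.176 in gained stretches, with 0.191 in the genome.

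Protein-coding genes with at least 50% of their length inside numbered 1256 in lost stretches, 5.66% of 22208 genes, and 489 in gained stretches, 2.2%. This was 15.4 genes per Mb lost and 6.81 genes per Mb gained, beside 7.18 in kept stretches and 8.69 in the genome. No gene lay inside 23 lost and 37 gained stretches. Median gene length was 15.5 kb in lost and 14.7 kb in gained stretches.

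**Figure D4:**
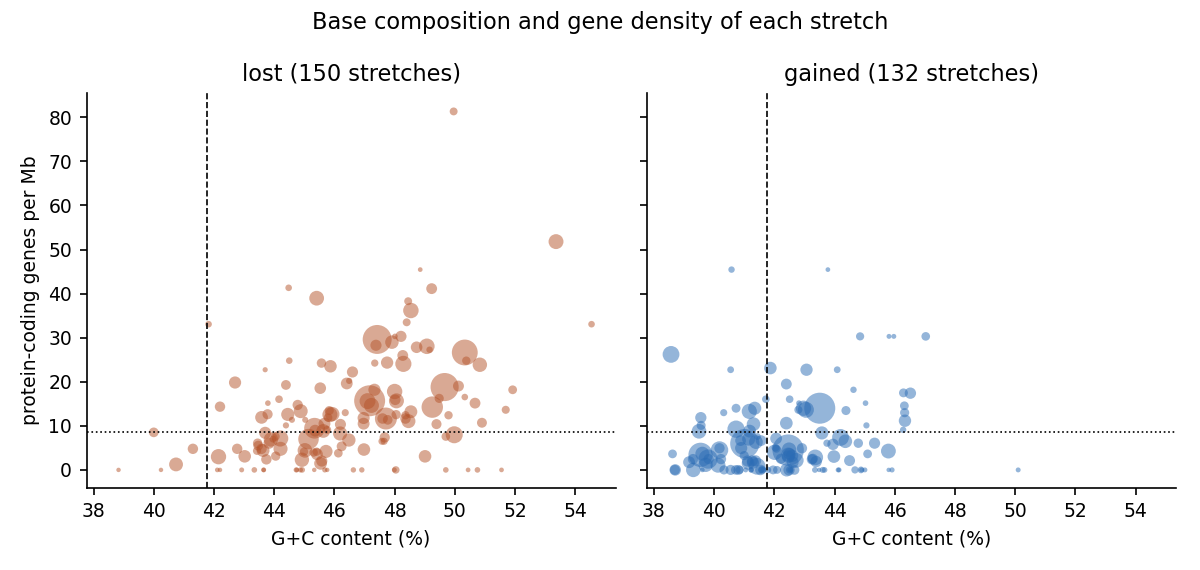
G+C content (%) and protein-coding genes per Mb of each lost stretch (left) and gained stretch (right), with point area growing with length. Dashed and dotted lines mark the called genome (41.8% G+C and 8.69 genes per Mb), and 145 of 150 lost stretches lie right of the dashed line, against 76 of 132 gained.

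Promoter windows, defined as for the sequences printed above, followed the same order. A CpG observed-to-expected ratio above 0.6, a usual mark of CpG-rich promoters, was found in 642 promoters of lost genes (51.1%) and 163 of gained genes (33.3%), beside 43.5% of all promoters. The Ror2 window, with a ratio of 0.714, passed this value, and that of Csmd1, with 0.580, was just under it. The median window held 14 CG dinucleotides in lost genes, 6 in gained genes and 11 in all genes. The motif TATAAA, on either strand, was in 8.20% of lost and 18.4% of gained promoters, beside 13.9% of all promoters. Kept genes had it in 9.34% of promoters.

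Of the 10 longest lost stretches, 7 were above the 8.69 genes per Mb of the genome and the other 3 had 6.99, 7.97 and 7.13 genes per Mb. After the 3 that hold Ror2, Cyp3a13 and Rpl12, the next was chr11:115291001-118294000 (3.00 Mb, 80 genes), which holds Sept9, a septin of the cytoskeleton, and Cyth1, an exchange factor for Arf GTPases. LAP2alpha at 12 cycles covered it fully and lamin B1 not at all, and at 30 cycles N18 covered 100% of it in KO cells and 0% in WT cells. The same KO and WT values were found for the stretches with Cyp3a13, with Rpl12, with Cdh23 and Col13a1 (chr10:59873001-61908000), and with Pitpnb and Mn1 (chr5:111551001-112805000). Cdh23 is a cadherin of hair-cell tip links, Col13a1 a transmembrane collagen, Pitpnb a phosphatidylinositol transfer protein and Mn1 a transcriptional regulator.

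The stretch chr9:120461001-122606000 holds Zfp651, Rpl14 and Cyp8b1, a sterol hydroxylase of bile acid synthesis. Its LAP2alpha cover of 81.0% was the lowest of the 10. The stretch chr6:125532001-127435000 holds Kcna1, Kcna5 and Kcna6, neighbouring voltage-gated potassium channels, and N18 at 30 cycles covered 99.4% of it in KO cells and 26.6% in WT cells. Among the 10, KO cover was not above WT cover with N18 at 30 cycles in 2. The chromosome 13 stretch at 72160001-74019000, with Slc12a7, a potassium-chloride cotransporter, and Lpcat1, a phospholipid acyltransferase, had 65.1% in KO cells and 84.6% in WT cells. The chromosome 9 stretch at 103268001-104390000, with Tmem108 and Dnajc13, an endosomal J-domain protein, had 99.0% in KO cells and 100% in WT cells, and it had a 3A6 cover of 93.1% in KO cells and 0% in WT cells.

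The longest gained stretches had little LAP2alpha at 12 cycles, 6.06% for the chromosome 16 stretch with 8 olfactory receptor genes and 0% for the other 9. Lamin B1 cover at 30 cycles differed widely among them. It was 100% on chrX:54010001-55308000, with the adhesion receptor Gpr112 and the exchange factor Arhgef6, on chr16:6545001-7766000, whose only gene inside was the splicing factor Rbfox1, and on chr16:88187001-89408000, with 16 keratin-associated protein genes. It was 90.5% on chr8:28402001-30030000, with Poteg and the nicotinic receptor subunit Chrnb3, 82.4% on chr12:115082001-117711000, with Zfp386, and 81.8% on chr18:45188001-46519000, with the calcium-activated potassium channel Kcnn2. It was 0% on chr16:96921001-98142000, with the neuronal adhesion protein Dscam.

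At 30 cycles these stretches also went separate ways. The stretch with Csmd1 had an N18 cover of 97.4% in KO cells and 87.7% in WT cells, and a 3A6 cover of 100% in KO cells and 42.9% in WT cells. That with Zfp386 had an N18 cover of 5.86% in KO cells and 41.4% in WT cells, and a 3A6 cover of 100% in KO cells and 84.1% in WT cells. The keratin-associated protein stretch had a 3A6 cover of 0% in KO cells and 100% in WT cells, opposite to 12 cycles, on the chromosome where that KO list is empty. N18 covered the Rbfox1 stretch by 100% in KO cells and 33.3% in WT cells.

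Gene lists divided between the sets. Members were counted against the 5.66% of all genes inside lost and the 2.2% inside gained stretches. Clusters of related genes share a stretch, so their members are not separate cases. Reads of low mapping quality were discarded before calling, and what this did to near-identical gene copies was not tested.

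Among signalling genes, chemokines and Wnt genes were on the lost side. Of 35 chemokine genes 9 were lost and none gained. The attractants of monocytes and eosinophils Ccl1, Ccl2, Ccl7, Ccl8, Ccl11 and Ccl12 lay in 1 stretch of 363 kb (chr11:81697001-82060000), and Ccl24, Ccl26 and Cxcl14 lay in the stretches with Cyp3a13 and Ror2. The annotated record of Ccl1 ran past the end of its stretch. Its start lay outside, and 45.9% of it was in KO domains of each antibody at 12 cycles. Counted by gene starts, 8 chemokine genes were lost. LAP2alpha covered all 9 genes fully at 12 cycles. Of 34 Wnt ligand and receptor genes 7 were lost and none gained: Ror2, the coreceptor Lrp5, the receptor Fzd9 and the ligands Wnt3a, Wnt7a, Wnt8b and Wnt9a. These lay on chromosomes 5, 6, 11, 13 and 19, all with full LAP2alpha cover at 12 cycles and no lamin B1.

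Housekeeping, nuclear and matrix gene lists had lost shares on both sides of that of all genes. The lost shares of the nuclear lamina, fibroblast and collagen lists each rested on 1 gene. Of 81 ribosomal protein genes 6 were lost (Rpl10a, Rpl12, Rpl14, Rpl37a, Rps10 and Rps15) and 1 gained (Rps4x), shares of 7.41% and 1.23%. Of 340 numbered zinc finger genes 16 were lost and 5 gained, shares of 4.71% and 1.47%. Of 15 nuclear lamina genes Lmnb2, which encodes lamin B2, was lost (6.67%), within a 946-kb stretch of chromosome 10 that holds 49 genes. Of 11 fibroblast genes Pdgfra, a growth factor receptor of mesenchymal cells, was lost, in a stretch of 88 kb without LAP2alpha cover. The start of Pdgfra lay outside that stretch, so by gene starts no fibroblast gene was lost. Among collagens Col13a1 was lost, 1 of 43 (2.33%).

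Some clustered tissue-specific families had gained shares above that of all genes. Of 41 beta-defensin genes, which encode antimicrobial peptides of epithelia, 15 were gained and none lost, all on chromosome 8 and 14 of them in the stretch with Csmd1. Of 46 keratin-associated protein genes, which encode hair shaft proteins, 16 were gained, all in 1 stretch, and Krtap12-1 was lost. Of 96 cytochrome P450 genes 8 were gained, all in the Cyp2a and Cyp2b cluster at chr7:26675001-27654000, and Cyp3a13 and Cyp8b1 were lost. That cluster was an exception among gained stretches, with LAP2alpha cover of 100% at 12 cycles. Of 1087 olfactory receptor genes 16 were gained and 4 lost, shares of 1.47% and 0.368%, both under the shares of all genes. Of 319 vomeronasal receptor genes 10 were gained (3.13%), 9 of them on chromosome 7, and 1 was lost.

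Membrane channel, adhesion and very long genes lay in both sets. Of 94 potassium channel genes 5 were lost (Kcna1, Kcna5, Kcna6, Kcnip3 and Kcnj12) and 5 gained (Kcnd3, Kcnmb2, Kcnmb3, Kcnn2 and Kcns3), 5.32% each. This was near the 5.66% of all genes for lost and above the 2.2% for gained. Kcna1, Kcna5 and Kcna6 shared 1 stretch, and so did Kcnmb2 and Kcnmb3. Of 47 glutamate and GABA receptor genes Grid1 and Gabrp were lost, and Gabra5 and Gabrg3 were gained. Of 23 cadherin genes Cdh23 was lost and Cdh6 gained. Of 200 genes longer than 500 kb 4 were lost (Grid1, Odz4, Slit3 and Smyd3) and 8 gained, among them Csmd1, Rbfox1, Dscam and Gabrg3, shares of 2.0% and 4.0%, and by their starts 2 were lost and 10 gained. No keratin, Hox, histone, protocadherin, contactin-associated protein, interferon alpha and beta, or E2F and retinoblastoma family gene lay inside a stretch of either set by this count, and none of 5 Tmem132 genes, of which 4 were kept. In the other small families Odz4 was lost, 1 of 4 teneurins, and Csmd1 and Defa24 were gained, 1 of 3 Csmd genes and 1 of 12 alpha-defensins. By gene starts no teneurin was lost.

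**Figure D5:**
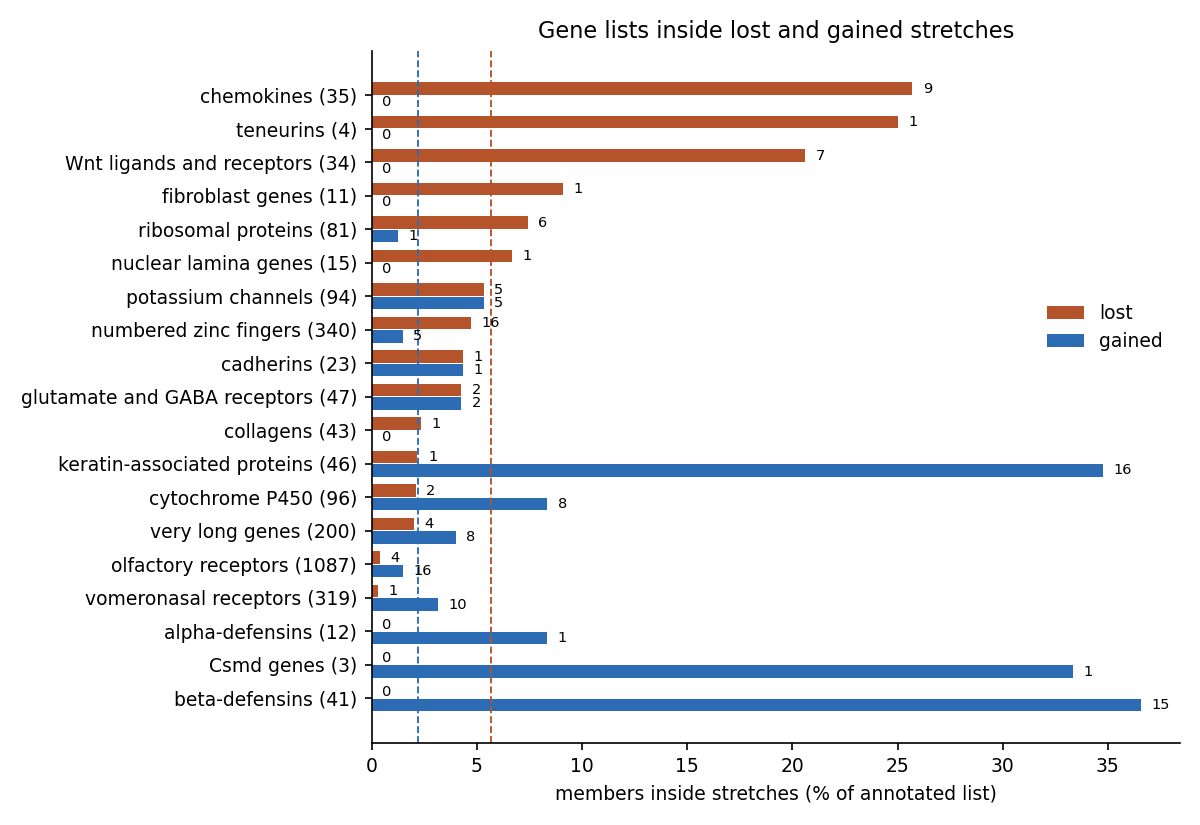
Percent of 19 annotated gene lists with a member in either set inside lost (upper bar) and gained (lower bar) stretches, with the number of genes at each bar end, the list size in parentheses and dashed lines at the shares of all genes (5.66% lost, 2.2% gained). Chemokine and Wnt genes reach 25.7% and 20.6% lost, and beta-defensin and keratin-associated protein genes 36.6% and 34.8% gained.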

How the data were processed

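A total of 12 lists of EDD domains and 12 of SICER islands were analysed, 1 of each per library. Per the study's methods and the submitters' processing notes, the authors used cutadapt for trimming and Bowtie2 2.1.0 for alignment to mm9, discarded mapping quality below 20, removed duplicates and reduced ChIP reads to the number in the matching input with Picard. The authors called islands with SICER 1.1 (window 1000 bp, gap 3000 bp, FDR 0.01) and deposited the read count of each island; they called domains with EDD 1.0.2 (bin 11 kb, gap penalty 5, FDR 0.1) and deposited its score per domain. Calling against input and equal read numbers limit what the lists can show: a domain edge or a missing domain is a threshold, not a signal level. Island read counts summed to between 3989494 (3A6, KO, 12 cycles) and 13601739 (N18, KO, 30 cycles) per library, with 9600190 for N18 in WT cells at 30 cycles. The sequenced and mapped read totals that the study lists were not used here.

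Stretches were found on a 1-kb grid by intersecting domain lists (Python 3.11.15, NumPy 2.4.6, pandas 2.3.3, matplotlib 3.10.9), checked on simulated lists. Cover is a percent of bp, with N bases left out of the called genome. The NCBIM37 sequence and GENCODE annotation gave 22208 protein-coding symbols, the longest record of each. A gene was inside at 50% of its length. Named stretches were the 10 longest of each set, with up to 3 listed genes each, or else the 2 longest genes, and up to 4 members of each of 28 gene lists; members named beyond 4 were chosen after their values were seen. Members and lists were chosen with earlier results of these data known. Alternatives were islands in place of domains, score and length minimums, autosomes, chromosomes of like island cover, other LAP2alpha and lamin B1 lists, and gene starts; chromosomes carrying both sets and the change with 1 antibody were added after seeing the data. In the text, 1 gene list and 1 promoter are not reported here. Inputs (4) and histone-mark samples (8) were not analysed here.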

Additional observations from a re-analysis of the deposited data

Results flagged for a closer look

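By domain lists, lost stretches had opposite signs of KO minus WT at the different sonications. At 12 cycles they were by definition inside WT domains alone, and at 30 cycles KO minus WT domain cover was 54.2 percentage points with N18 (67.2% in KO cells and 13.0% in WT cells) and 10.2 points with 3A6 (13.9% in KO cells and 3.71% in WT cells). By SICER islands KO minus WT at 30 cycles was -2.51 points with N18 and -1.20 with 3A6, the sign of 12 cycles. Islands of 3A6 also covered less of the whole genome in KO cells, 6.32% against 8.35% in WT cells. Islands of N18 covered more of it, 10.7% in KO cells against 9.51% in WT cells. Kept stretches also had more KO than WT domain cover at 30 cycles, 93.2% in KO cells and 71.4% in WT cells with N18. With 1 library per group the difference between sonications was not tested. The 12-cycle values chose the stretches, 30-cycle N18 cover of the whole genome was also higher in KO cells (18.4% against 9.32% in WT cells), and the part of either in the change of sign was not tested.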

How the results depend on the processing

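Of 101 values under alternative choices, 69 kept their sign and stayed within a tolerance, 27 moved beyond it and 5 changed sign. The tolerance was 1.5 times for lengths, gene counts, genes per Mb and G+C, and for cover the 95% Wilson interval with stretches as units. Stretches are not replicates, since several can share a domain and each cover comes from 1 library. The interval served as a yardstick alone and measures no spread between libraries. It is wide for small differences, and 5 of the 69 were over 1.5 times apart: N18 on gained bp was 14.9 points with domains above the median score, 15.2 with stretches changed for N18 and 10.2 on chromosomes with both sets, and with stretches chosen from islands 3A6 was 5.12 points on lost and 5.74 on gained bp. No paired analysis was possible because no result comes from a test: each group holds 1 library, so KO and WT groups share fewer than 2 replicate numbers, and the KO minus WT difference within each antibody and sonication is already the value given. The SICER islands of the 30-cycle libraries turned the sign of KO minus WT on lost bp, to -2.51 points with N18 and -1.20 with 3A6. On gained bp N18 turned on chromosomes of like island cover (-0.281 points), where chromosome 15 was negative and chromosome 8 positive. With stretches changed for 3A6 whatever N18 showed both antibodies turned (-0.0948 points with N18, -3.05 with 3A6). The cause was not tested.

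Stretches chosen from SICER islands summed to 29.1 Mb lost and 33.9 Mb gained, with differences of lost minus gained of 26.2 points for LAP2alpha, -9.73 points for lamin B1 and 2.25 points for G+C, and an N18 difference on lost bp of 24.0 points. Chromosomes of like island cover held 6.56 Mb lost and 11.7 Mb gained, with 30-cycle differences of 75.2 points (N18, lost), 0.168 points (3A6, lost) and 39.7 points (3A6, gained). Chromosomes with both sets held 23.6 Mb gained, with a LAP2alpha difference of 75.0 points. Stretches changed with N18 whatever 3A6 showed summed to 157.0 Mb lost and 174.9 Mb gained, with differences of 56.8 points for LAP2alpha, -25.8 for lamin B1 and 3.11 for G+C, and an N18 difference on lost bp of 44.0 points. Those changed with 3A6 summed to 211.9 Mb lost and 197.2 Mb gained, with -64.4 points for lamin B1 and a 3A6 difference on lost bp of 17.0 points. LAP2alpha domains of 30 cycles gave 20.2 points and its 12-cycle islands 16.0, and lamin B1 domains of 12 cycles gave -16.6 points and its 30-cycle islands -14.8. LAP2alpha stayed higher on lost and lamin B1 on gained bp, and genes per Mb and G+C stayed higher on lost bp, under each of these choices. Without a replicate, the spread between libraries of 1 group is unknown.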
